A study of Mus musculus with 312 samples.

Results

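The collagen gene family was described in single cells of the mouse mammary gland. Members were all Entrez genes whose mouse symbol has the form of Col, a number, the letter a and a number, as in Col4a1, and 44 of the 25136 genes used had such a symbol. They comprised 11 fibrillar collagens, 9 collagens of the basement membrane and its zone, 9 FACIT collagens (fibril-associated collagens with interrupted helices), 4 transmembrane collagens and 11 others. RNA was sequenced from 312 cells of FVB/NJ mammary glands, freshly sorted, captured on the Fluidigm C1 and labelled as basal, the outer contractile layer of the ducts. Of these, 237 cells were labelled adult and 75 pregnancy, with no treatment. Titles of 112 adult cells carried the mark (2), here called marked, and 125 did not, here called unmarked. The labels explain neither the mark nor the day of pregnancy and name no animals. By the study's own account its C1 pregnancy cells came from total epithelium, and the sorting of the 75 cells as basal is known from the labels alone. Their core basal and luminal genes are given below. No capture run is named in the labels, so a difference of stage and one of run cannot be told apart.

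Collagens are proteins of the extracellular matrix whose chains wind around each other in a helix built on the repeat Gly-X-Y, in which X and Y are often proline or hydroxyproline. Fibrillar collagens have a long unbroken repeat and assemble into fibrils, whereas collagen IV has a repeat broken by interruptions and forms the flexible network of basement membranes. FACIT collagens sit on the surface of fibrils, and transmembrane collagens are anchored in the cell membrane. In the mammary gland, basal cells lie directly on the basement membrane and contribute to it, while stromal fibroblasts are known as the main source of fibrillar collagens I and III.

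The repeat was read from the coding sequences to show what the classes share. For 1 member of each of 4 classes, a coding exon of 54 bases made wholly of Gly-X-Y triplets is shown 5′ to 3′ on the strand of the gene. The glycine codon that opens each triplet is in capitals, and a glycine codon at X or Y is not. The exons are exon 15 of Col11a1 (GRCm38, chr3:114108281-114108334, plus strand), exon 7 of Col4a1 (chr8:11245211-11245264, minus strand), exon 11 of Col9a1 (chr1:24202014-24202067, plus strand) and exon 17 of Col23a1 (chr11:51569461-51569514, plus strand), all in the GENCODE M21 annotation.
Col11a1: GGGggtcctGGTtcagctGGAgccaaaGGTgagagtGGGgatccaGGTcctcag
Col4a1: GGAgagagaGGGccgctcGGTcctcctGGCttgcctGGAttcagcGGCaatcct
Col9a1: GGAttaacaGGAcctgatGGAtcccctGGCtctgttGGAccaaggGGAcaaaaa
Col23a1: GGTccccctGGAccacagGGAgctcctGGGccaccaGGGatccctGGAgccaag
Each exon held 6 triplets and no interruption. Over whole coding sequences the classes differed in how long the repeat ran unbroken. The longest run had a median of 338 triplets in the 11 fibrillar members (216 to 344), 42 in the 9 basement membrane members (30 to 75), 57 in the 9 FACIT members (32 to 113) and 43.5 in the 4 transmembrane members (40 to 56). In Col4a1 the longest run was 40 triplets and in Col4a2 66. All 3 chains of collagen IX, Col9a1, Col9a2 and Col9a3, had a longest run of 113. Fibrillar genes carried 21 to 33 coding exons of exactly 54 bases, FACIT genes 4 to 28, basement membrane genes 1 to 6 and transmembrane genes 3 or 4.

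**Figure D1:**
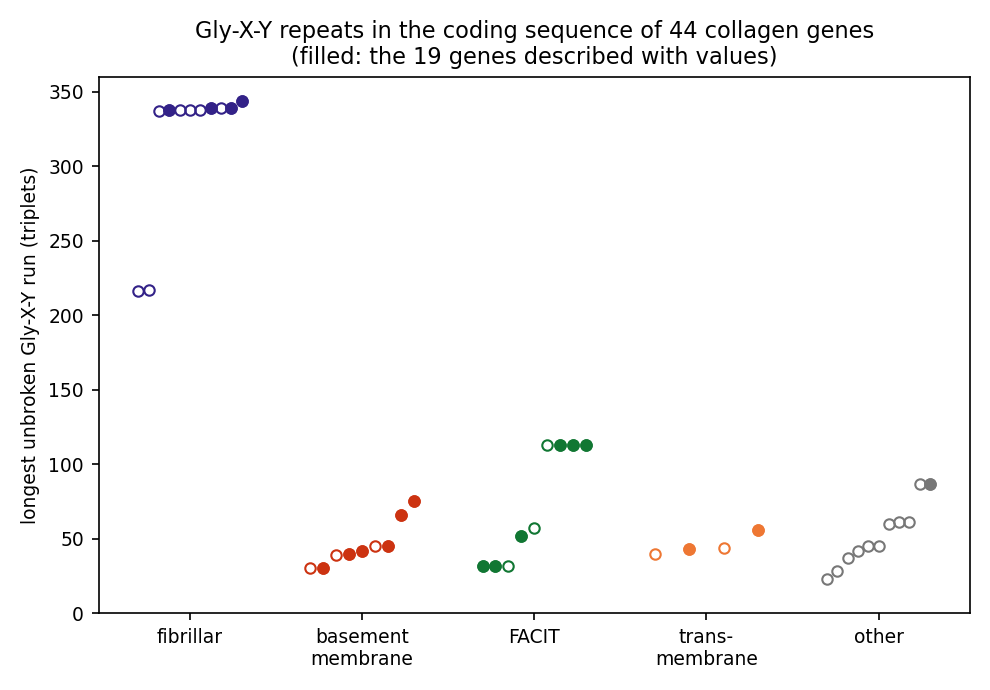
Longest unbroken Gly-X-Y run in triplets (vertical axis) for the 44 collagen genes by class (horizontal axis), 1 point per gene, filled for the 19 genes described with values. All fibrillar genes lie at 216 triplets or more, and every gene of the other classes lies at 113 or fewer.

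Cells with at least 50000 reads and 1000 genes outside mitochondrial and ribosomal protein genes were retained, 81 of 112 marked adult, 58 of 125 unmarked adult and 71 of 75 pregnancy cells. Their median depths were 174910, 101320 and 230645 assigned reads. At least 6 of 11 core basal genes reached 100 CPM (reads per 1e+06 assigned reads) in 93.8% of marked, 87.9% of unmarked and 98.6% of pregnancy cells. At least 3 of 8 luminal genes did so in 4, 3 and 1 cells. At least 3 genes of a fibroblast, pericyte, endothelial, Schwann or immune list did so in 3, 5 and 2 cells. The latter are called cells of other lineages below, a name for the list and not for the cell type. Of them, marked cell 102, unmarked cells 135, 151 and 155 and pregnancy cells 44 and 62 also carried at least 6 core basal genes. Summed over the 8 fibroblast genes, a list without collagens, the median cell had 3.99 CPM in marked adult (0 to 3258), 26.7 in unmarked adult (0 to 28852) and 555 in pregnancy cells (49.1 to 5766). One gene made up most of that difference. The proteoglycan gene Dcn had a median of 0, 21.7 and 555 CPM, while the other 7 genes had medians of 0 in all groups except Fbln1, at 2.66 CPM in pregnancy. The median mitochondrial share of reads was 9.65%, 15.6% and 18.4%. Whether any of these differences had a part in the collagen values was not tested. Each group is treated as 1 sample, so no test was run between groups. Intervals are 95% intervals. Those of shares are exact Clopper-Pearson and give counting error only. Those of medians come from binomial ranks and reflect the spread among the cells of a group. Neither kind covers differences between animals or runs, so intervals that lie apart only describe these cells.

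Collagens took a larger part of the RNA in pregnancy cells than in either adult set. The summed reads of the 44 genes made up 0.329% of assigned reads in marked adult cells (interval 0.326 to 0.332%), 0.447% in unmarked adult cells (0.442 to 0.452%) and 0.921% in pregnancy cells (0.916 to 0.926%). These intervals leave out the spread among cells, as without unmarked cell 149 the unmarked share was 0.405%. Per cell, the share ranged from 0.0154 to 1.04% with a median of 0.295% in marked cells, from 0.0303 to 1.71% with a median of 0.376% in unmarked cells, and from 0.0164 to 2.12% with a median of 0.848% in pregnancy cells. The groups overlapped, while the interval of the pregnancy median (0.711 to 1.02%) lay above those of the marked (0.253 to 0.331%) and unmarked medians (0.297 to 0.459%). More than 1% of reads went to collagens in 1 of 81 marked, 4 of 58 unmarked and 28 of 71 pregnancy cells (1.23%, 6.90% and 39.4%, the last with an interval of 28.0 to 51.7%). The lowest pregnancy cell, cell 71, lay far below the next at 0.351%. It carried 5 of 8 luminal and 5 of 11 core basal genes at 100 CPM, and 56.5% of its reads were mitochondrial.

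Most of the difference in collagen reads lay in basement membrane collagens. Their share of assigned reads was 0.194% in marked adult, 0.261% in unmarked adult and 0.726% in pregnancy cells. Among collagen reads alone, they made up 59.1%, 58.3% and 78.9%. FACIT collagens took 0.0666%, 0.0761% and 0.112% of assigned reads, and transmembrane collagens 0.0385%, 0.0446% and 0.0430%. Fibrillar collagens took 0.0207%, 0.0581% and 0.0372%. Unmarked cell 157, which carried fibroblast genes and no core basal gene at 100 CPM, held 58.8% of the unmarked fibrillar reads, and without it the unmarked share was 0.0247%, below that of pregnancy. The remaining collagens never exceeded 0.00864%. Without Col4a1 and Col4a2, the collagen share was 0.199%, 0.232% and 0.288%, in the same order of groups. In the median cell these 2 genes held 35.9% of collagen reads in marked adult (interval 29.7 to 46.6%), 40.7% in unmarked adult (30.6 to 51.3%) and 68.9% in pregnancy cells (65.8 to 71.8%). They exceeded 50% in 28 of 81, 22 of 58 and 66 of 71 cells.

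**Figure D2:**
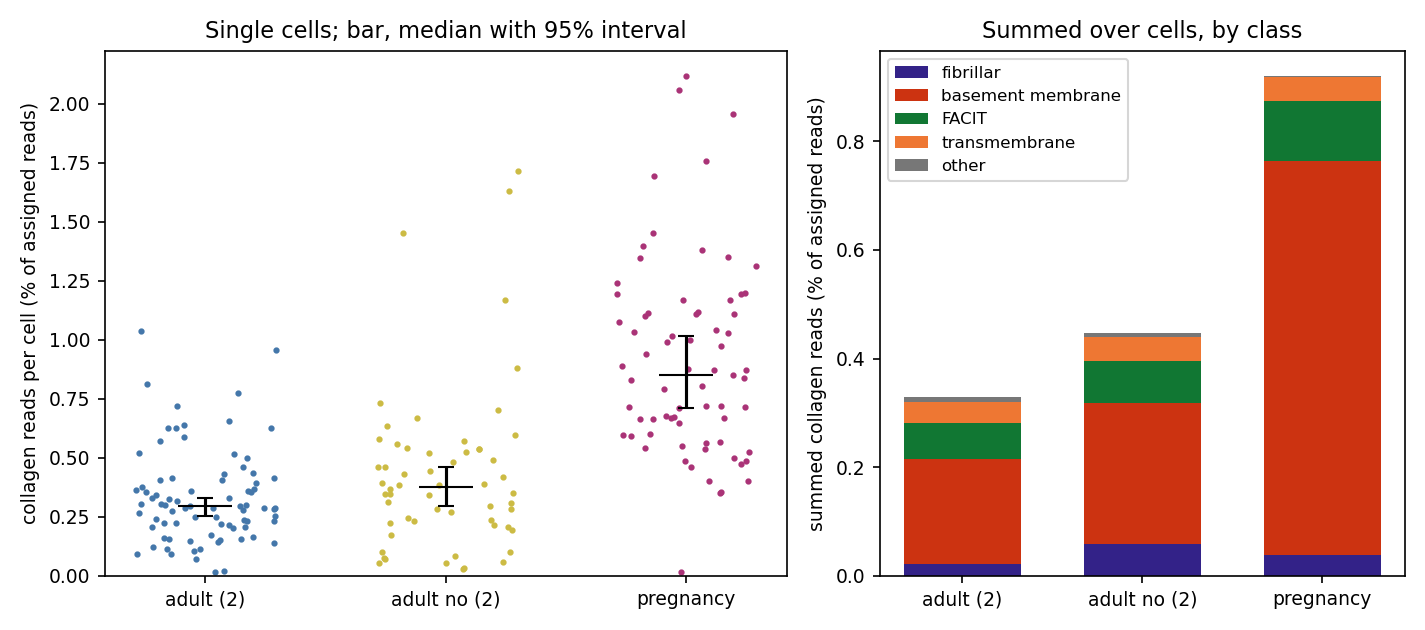
Left, collagen reads of each cell in percent of its assigned reads, with 1 point per cell and the group median with its 95% interval. Right, summed collagen reads in percent of summed assigned reads, split by class. The pregnancy median of 0.848% lies above those of both adult sets, 0.295% and 0.376%, and the basement membrane class makes up most of each bar.

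Pregnancy cells also held more kinds of collagen transcript at equal depth. After each cell was thinned at random to 50000 assigned reads, the median number of collagen genes with at least 1 read was 9 in marked adult (interval 8 to 10, range 1 to 16), 9 in unmarked adult (8 to 10, range 2 to 23) and 14 in pregnancy cells (13 to 15, range 4 to 21). Over all genes used, the medians after thinning were 2340, 2204.5 and 3212, so the pregnancy cells were higher over all genes too. At least 50% of cells had a read of 8 collagen genes in each adult set and of 13 in pregnancy.

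Of the 44 genes, 26 averaged 10 CPM or more in 1 of the 3 groups, and differences are counted among these. A gene was called higher in pregnancy when the log2 ratio of mean CPM, with 10 CPM added to each mean, was at least 1 against each adult set. By this rule 5 of 26 collagen genes were higher, the collagen IV chains Col4a1 and Col4a2, the anchoring fibril collagen Col7a1, the FACIT Col9a1 and the transmembrane Col23a1. Among all 9882 genes with such a mean, 9.26% were called higher. At a log2 ratio of -1 or less, 1 of 26 was called lower, the collagen VI chain Col6a2, against 4.44% of all genes. The adult sets share no cells, but both ratios share the pregnancy cells. The median log2 ratio over the 26 genes was 0.56 against the marked set and 0.09 against the unmarked set, and over all genes it was 0.04 and 0.09. Against the unmarked set the middle of the family thus lay where the middle of all genes lay. By class, the medians against the marked and unmarked sets were 1.71 and 1.09 for the 6 basement membrane genes, 0.91 and 0.45 for the 6 FACIT genes, 0.74 and -0.36 for the 7 fibrillar genes and -1.45 and -0.37 for the 5 others. Both ratios were positive for 12 genes and negative for 6, and 8 genes had opposite signs.

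**Figure D3:**
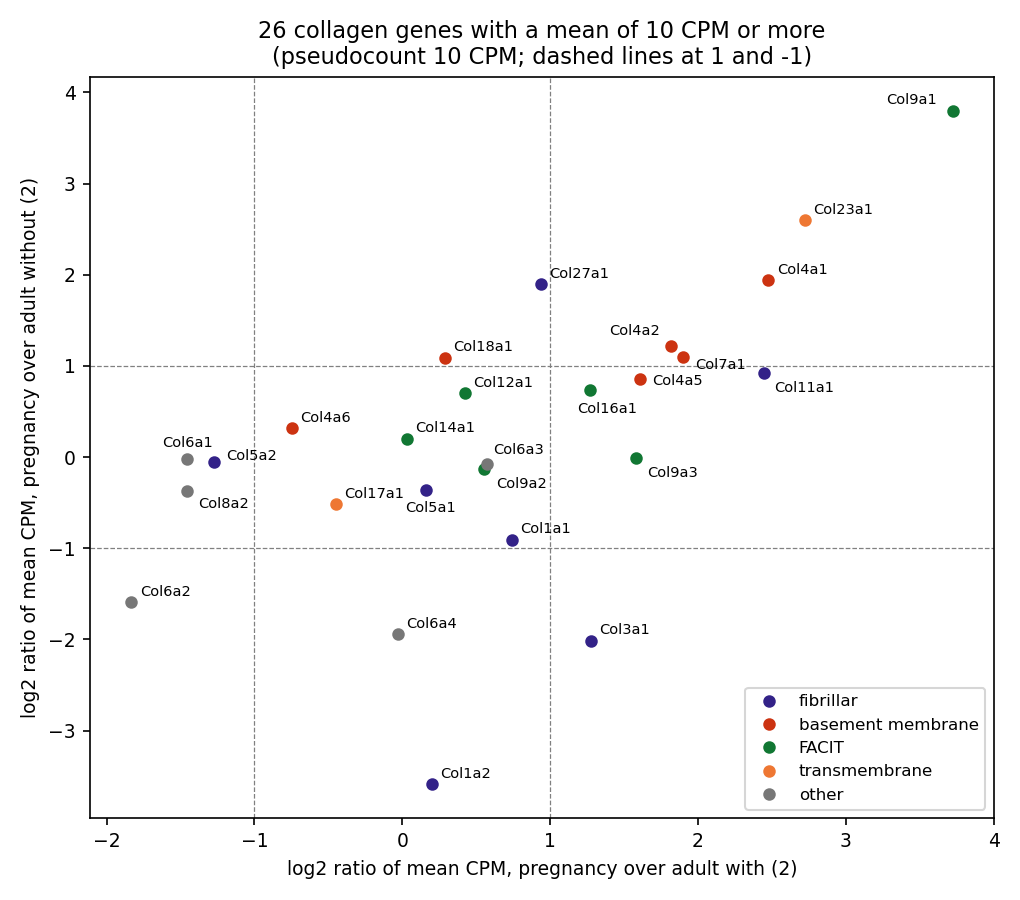
Log2 ratio of the pregnancy mean CPM over that of marked adult cells (horizontal axis) and over that of unmarked adult cells (vertical axis) for the 26 collagen genes that averaged 10 CPM or more in 1 group, coloured by class, with dashed lines at 1 and -1. The 5 genes called higher lie in the upper right corner, led by Col9a1 at 3.72 and 3.80, and Col6a2 lies in the lower left corner.

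Col4a1 and Col4a2 encode the chains of the collagen IV present in all basement membranes. The genes lie head to head on chromosome 8. RefSeq promoter windows (250 bases before to 50 after each start, GRCm38.p6) of Col4a2 (chr8:11312555-11312854, plus strand) and Col4a1 (chr8:11312777-11313076, minus strand) overlap by 78 bases. These are shown in capitals because the starts used for both windows lie inside them, 21 bases apart. The RefSeq span of Col4a1 reaches beyond the overlap, to base 11312889.
Col4a2: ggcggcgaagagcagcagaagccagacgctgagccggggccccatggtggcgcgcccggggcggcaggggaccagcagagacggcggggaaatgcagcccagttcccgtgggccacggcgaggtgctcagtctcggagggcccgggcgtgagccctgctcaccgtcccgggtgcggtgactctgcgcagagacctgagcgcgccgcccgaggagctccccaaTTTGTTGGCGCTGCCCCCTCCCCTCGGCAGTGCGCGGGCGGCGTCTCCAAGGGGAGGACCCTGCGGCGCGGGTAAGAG
Col4a1: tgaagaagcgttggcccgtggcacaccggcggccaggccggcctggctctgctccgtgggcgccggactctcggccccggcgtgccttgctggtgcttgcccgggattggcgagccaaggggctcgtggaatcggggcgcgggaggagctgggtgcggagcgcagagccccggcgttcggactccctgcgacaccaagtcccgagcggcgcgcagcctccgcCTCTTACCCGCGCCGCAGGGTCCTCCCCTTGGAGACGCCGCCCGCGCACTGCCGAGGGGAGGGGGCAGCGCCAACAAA
Windows were found for 35 of the 44 members, and no other windows of 2 members overlapped. On either strand, the letters GGGCGG stood in the Col4a1 window once and in the Col4a2 window 3 times, CCAAT once in each and TATAAA in neither. Over all 32544 distinct windows of this length, 35.9% held GGGCGG, 37.4% CCAAT and 13.6% TATAAA. In the 38 windows of the family the shares were 60.5%, 34.2% and 13.2%. It is not stated if reads were counted by strand, and the annotated exons of Col4a1 and Col4a2 overlap by 22 bases, which is 0.295% of the exon bases of Col4a1.

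Per kilobase of exon, Col4a1 had the highest mean level of the family in every group. It ranged from 0 to 4784 CPM with a median of 363 CPM in marked adult cells (interval 182 to 610), from 0 to 5484 CPM with a median of 585 CPM in unmarked adult cells (391 to 986), and from 71.0 to 10496 CPM with a median of 3462 CPM in pregnancy cells (2801 to 4093). Pregnancy cells were higher, and the groups overlapped at their ends. Of the 71 pregnancy cells, 70 lay above the marked adult median, 69 above the unmarked adult median and 14 above every adult cell. The lowest pregnancy value was that of cell 71. Mean levels were 702, 1022 and 3952 CPM, with log2 ratios of 2.48 against marked and 1.94 against unmarked adult cells. By mean level per kilobase, Col4a1 had rank 719, 547 and 81 among all genes in marked adult, unmarked adult and pregnancy cells.

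Col4a2 had the same order of group means. It ranged from 0 to 3377 CPM with a median of 385 CPM in marked adult cells, from 0 to 13151 CPM with a median of 290 CPM in unmarked adult cells, and from 32.7 to 9413 CPM with a median of 1800 CPM in pregnancy cells. No pregnancy cell exceeded the highest adult cell, unmarked cell 149, which held 38.2% of the Col4a2 reads of its group. Log2 ratios of the means were 1.82 and 1.22. With summed reads scaled by DESeq2 size factors, the ratio against unmarked cells was 0.95, under the limit of 1.

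Reads of both Col4a1 and Col4a2 were found after thinning in 63 of 81 marked (77.8%), 51 of 58 unmarked (87.9%) and 70 of 71 pregnancy cells (98.6%). Over cells, the levels of the 2 chains had a Spearman correlation of 0.25, 0.42 and 0.32. These are descriptions over 81, 58 and 71 cells whose chains share library and depth. Per kilobase, mean Col4a1 stood to mean Col4a2 at 1.08 in marked and 1.03 in unmarked adult cells, and at 1.70 in pregnancy. In cells with both, the median ratio was 0.885 in marked adult (interval 0.533 to 1.76), 1.70 in unmarked adult (1.03 to 3.24) and 1.70 in pregnancy cells (1.48 to 2.73). The ratio varied from 0.00934 to 53.6 in adult cells and from 0.189 to 14.1 in pregnancy cells, so single cells were far more uneven than the means.

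**Figure D4:**
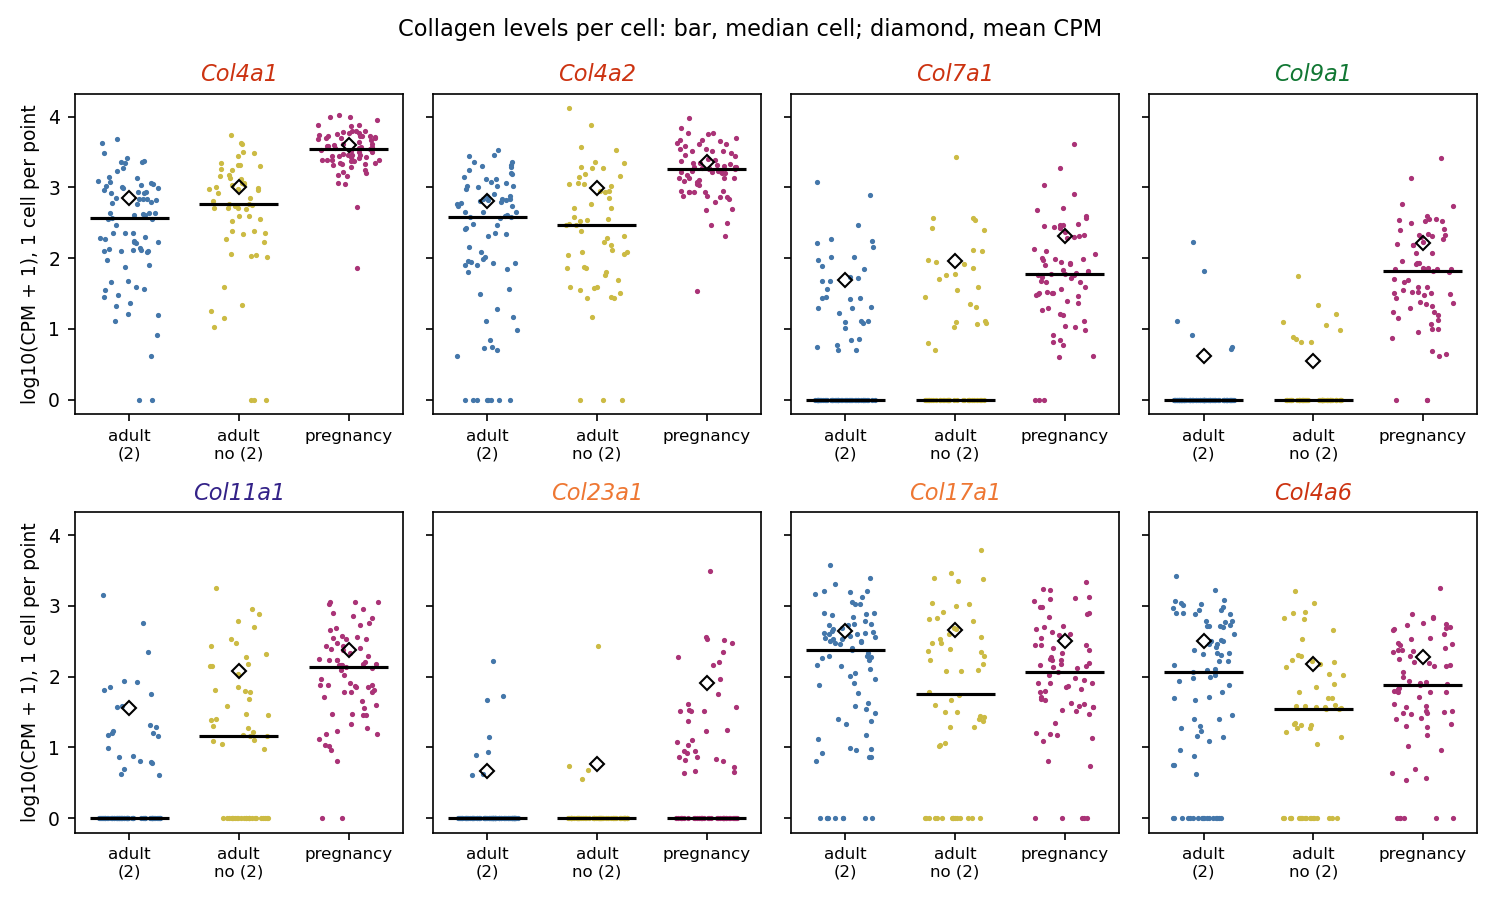
Levels of 8 collagen genes as log10(CPM + 1), with 1 point per cell, a bar at the median cell and a diamond at the mean CPM, for marked adult (2), unmarked adult and pregnancy cells. Col4a1, Col4a2, Col7a1, Col9a1 and Col11a1 have higher medians in pregnancy, whereas the median of Col23a1 is 0 in all groups and those of Col17a1 and Col4a6 are highest in marked adult cells.

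The second pair of collagen IV chains, Col4a5 and Col4a6, found in specialised basement membranes and around smooth muscle, was less abundant, and its chains differed between groups in unlike ways. Col4a5 ranged from 0 to 1475 CPM (median 14.4) in marked adult, from 0 to 1974 CPM (median 49.3) in unmarked adult and from 0 to 2623 CPM (median 159) in pregnancy cells. It was detected after thinning in 53.1%, 75.9% and 93.0% of cells. Its log2 ratios were 1.61 and 0.86, so it was not called, though without unmarked cell 164 the ratio of 1.13 against unmarked cells would have passed. Col4a6 ranged from 0 to 2663 CPM (median 116), from 0 to 1623 CPM (median 33.5) and from 0 to 1796 CPM (median 76.0), and its ratios of -0.75 and 0.31 had opposite signs. Per kilobase, mean Col4a5 stood to mean Col4a6 at 0.320 in marked adult, 1.21 in unmarked adult and 1.79 in pregnancy cells. Both chains had reads in 42.0%, 48.3% and 73.2% of cells.

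The chains Col4a3 and Col4a4, known from the glomerular basement membrane of the kidney, were near the limit of detection. Col4a3 had a read after thinning in 0 of 81 marked, 1 of 58 unmarked and 16 of 71 pregnancy cells (22.5%, interval 13.5 to 34.0%), with a highest mean of 8.67 CPM and no cell at 100 CPM. Col4a4 had a read in 2, 0 and 3 cells, and 85.3% of its pregnancy reads lay in cell 23.

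Col7a1, whose protein forms the fibrils that anchor the epidermal basement membrane to the dermis, was called higher. It ranged from 0 to 1194 CPM with a median of 0 in marked adult, from 0 to 2687 CPM with a median of 0 in unmarked adult and from 0 to 4050 CPM with a median of 58.5 CPM in pregnancy cells. More cells had it in pregnancy. After thinning it was detected in 32.1% (interval 22.2 to 43.4%), 36.2% (24.0 to 49.9%) and 81.7% (70.7 to 89.9%). Mean levels were 47.7, 90.3 and 205 CPM, with log2 ratios of 1.90 and 1.10. Unmarked cell 152 held 53.1% of the Col7a1 reads of its group, and without it the unmarked mean was 44.8 CPM. With each group's highest cell left out, the means were 33.4, 44.8 and 150 CPM and the gene was still called. The call was lost when pregnancy cell 28 alone, the highest, was left out, with a ratio of 0.67 against unmarked cells. In cells with at least 100000 reads and 1500 genes, the ratio against unmarked cells was 0.60, so the call was lost there too.

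Col18a1, the basement membrane collagen from which endostatin is cut, was detected in 54.3%, 62.1% and 78.9% of cells. Its levels lay from 0 to 2085 CPM (median 17.3), from 0 to 697 CPM (median 21.9) and from 0 to 1557 CPM (median 73.8). Its log2 ratios were 0.29 and 1.09, so it was not called. Its relative Col15a1 had a read in 0, 3 and 3 cells, and 77.8% of its unmarked adult reads lay in cell 157, a cell with fibroblast genes described below.

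**Figure D5:**
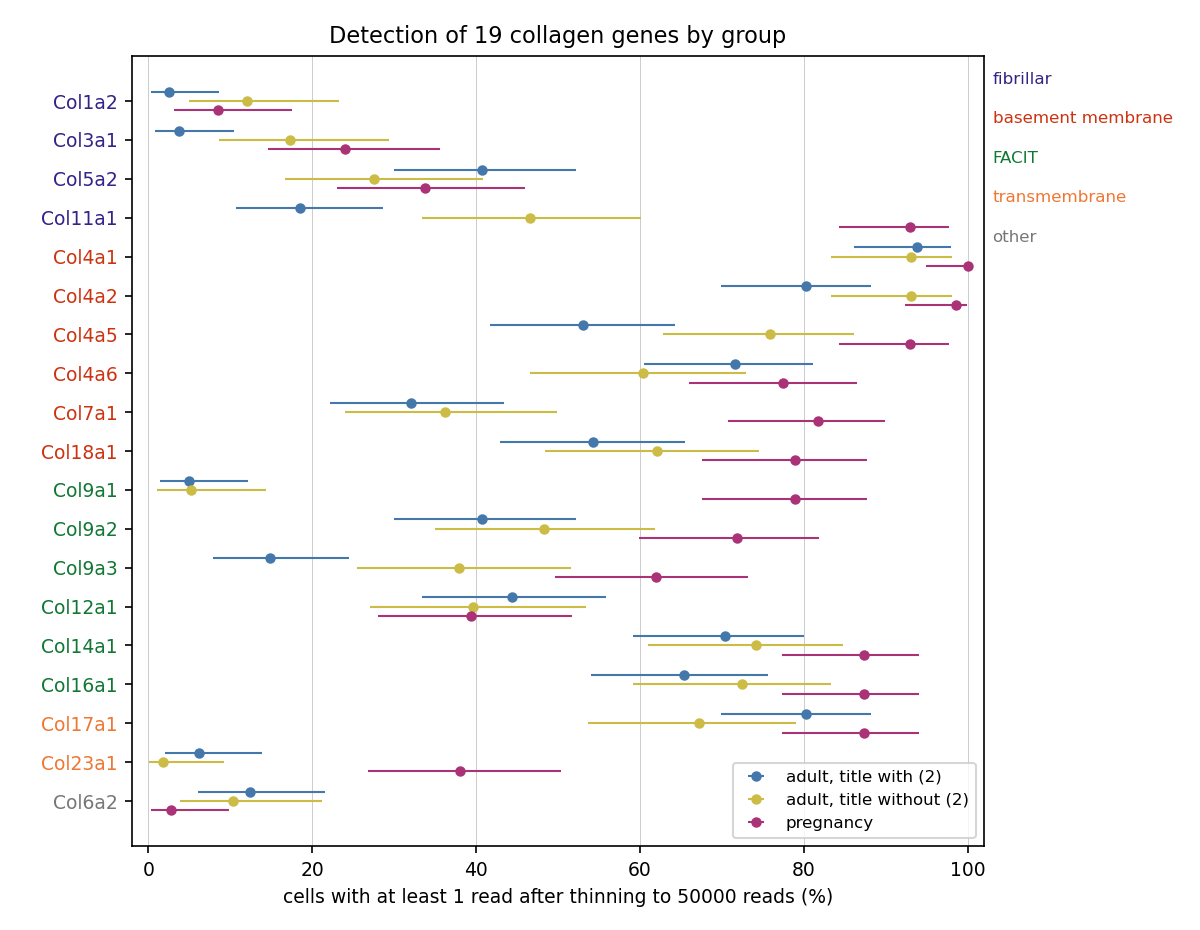
Percent of cells with at least 1 read after thinning to 50000 assigned reads (horizontal axis) for the 19 collagen genes described with values (vertical axis, coloured by class), with exact 95% intervals of counting error, for the 3 groups. Intervals of pregnancy and both adult sets do not overlap for Col11a1, Col7a1, Col9a1 and Col23a1. For how many of all genes this holds was not counted. Over all genes, the median number with a read was also higher in pregnancy, at 3212 against 2340 in marked and 2204.5 in unmarked adult cells.

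Among FACIT collagens, the collagen IX chains stood apart from each other. Collagen IX is best known from cartilage, where it decorates fibrils of collagens II and XI, and its molecule is built of Col9a1, Col9a2 and Col9a3 chains. Col9a1 (Entrez 12839) ranged from 0 to 166 CPM in marked adult and from 0 to 54.1 CPM in unmarked adult cells, with medians of 0, and from 0 to 2559 CPM with a median of 63.8 CPM in pregnancy cells. It was nearly absent from the adult libraries and present in most pregnancy cells. After thinning it had a read in 4 of 81 marked (4.94%), 3 of 58 unmarked (5.17%) and 56 of 71 pregnancy cells (78.9%, interval 67.6 to 87.7%). Means were 3.18, 2.49 and 164 CPM, and the log2 ratios of 3.72 and 3.80 were the largest of the family. In pregnancy 20 cells lay above every adult cell, and no pregnancy cell held more than 16.6% of the reads. Marked cell 32 held 68.2% of the few marked adult reads. The size of the ratios depends on the 10 CPM added, since they were 1.36 and 1.36 with 100 CPM and 5.30 and 5.56 with 1 CPM.

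The partner chains Col9a2 and Col9a3 were present in adult cells too. Col9a2 ranged from 0 to 2564 CPM (median 0) in marked adult, from 0 to 3732 CPM (median 13.0) in unmarked adult and from 0 to 1368 CPM (median 81.8) in pregnancy cells, with log2 ratios of 0.55 and -0.13. Col9a3 ranged from 0 to 906 CPM (median 0), from 0 to 3324 CPM (median 3.34) and from 0 to 943 CPM (median 32.6), with log2 ratios of 1.58 and -0.01. Neither was called, although detection was 40.7%, 48.3% and 71.8% for Col9a2 and 14.8%, 37.9% and 62.0% for Col9a3. Per kilobase, mean Col9a1 stood to mean Col9a2 at 0.0162 in marked adult, 0.00768 in unmarked adult and 0.558 in pregnancy cells. Reads of all 3 chains were found in 0 of 81 marked, 3 of 58 unmarked and 25 of 71 pregnancy cells (35.2%, interval 24.2 to 47.5%). Within pregnancy, the level of Col9a1 had a Spearman correlation over 71 cells of 0.02 with Col9a2 and 0.13 with Col9a3, as a description of sparse counts in shared libraries. Marked cell 34 held 52.9% of the marked adult reads of Col9a3. Unmarked cell 171 held 42.5% of the unmarked reads, and without it the unmarked mean was 45.2 in place of 102 CPM, the ratio against unmarked cells 1.00 and the gene called higher. When log2 values were averaged, the ratios against unmarked cells were 0.94 for Col9a2 and 0.98 for Col9a3, so the sign of both turned. An opposite-strand gene, Tcfl5, overlaps 6.07% of the exon bases of Col9a3, and its reads may not be told apart from those of Col9a3.

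The other FACIT collagens were expressed in all groups. Col14a1 (undulin), a collagen at the surface of collagen I fibrils, was detected in 70.4%, 74.1% and 87.3% of cells, with medians of 129, 81.7 and 173 CPM and a highest cell of 1635, 2832 and 1748 CPM. Its means of 330, 292 and 337 CPM were close, with log2 ratios of 0.03 and 0.20. Col16a1, a minor FACIT of connective tissue and epithelium, was detected in 65.4%, 72.4% and 87.3%, with medians of 41.5, 50.6 and 95.2 CPM, highest cells of 962, 1597 and 2106 CPM and log2 ratios of 1.27 and 0.74. Col12a1, a large chain bound to collagen I fibrils, was detected in 44.4%, 39.7% and 39.4%, with medians of 6.36, 3.54 and 7.09 CPM, highest cells of 1085, 833 and 1635 CPM and log2 ratios of 0.42 and 0.70. None of these 3 was called, though without unmarked cell 187 the ratio of Col16a1 against unmarked cells was 1.02. In cells with at least 100000 reads and 1500 genes the ratios of Col16a1 were 1.37 and 1.29, which would have passed. Col19a1, Col20a1 and Col22a1 stayed under a mean of 10 CPM in every group.

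Of the 4 transmembrane collagens, Col17a1 was abundant and Col23a1 was called higher. Col17a1 encodes a hemidesmosome protein that ties basal keratinocytes to the basement membrane. It ranged from 0 to 3761 CPM with a median of 240 CPM in marked adult, from 0 to 6043 CPM with a median of 56.5 CPM in unmarked adult and from 0 to 2196 CPM with a median of 114 CPM in pregnancy cells. The pregnancy median lay between those of the adult sets. Its means of 435, 457 and 317 CPM gave log2 ratios of -0.45 and -0.52, and detection was 80.2%, 67.2% and 87.3%. When log2 values were averaged instead, the ratio against unmarked cells was 0.45, so its direction depends on the averaging. Per kilobase, mean Col4a1 stood to mean Col17a1 at 1.32, 1.84 and 10.2 in marked adult, unmarked adult and pregnancy cells.

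Col23a1 was carried by fewer cells. Levels ran from 0 to 166 CPM, from 0 to 273 CPM and from 0 to 3151 CPM, with a median of 0 in each group. After thinning it had a read in 5 of 81 marked (6.17%), 1 of 58 unmarked (1.72%) and 27 of 71 pregnancy cells (38.0%, interval 26.8 to 50.3%). Its log2 ratios were 2.72 and 2.60. Pregnancy cell 69 held 61.8% of the pregnancy reads, and without it the mean was 36.5 in place of 80.4 CPM. Unmarked cell 165 held 89.3% of the unmarked adult reads. With each group's highest cell left out the gene was still called. It was not called with 100 CPM added (0.80 and 0.78) or as an average of log2 values (0.97 and 1.02). Col25a1, a transmembrane collagen of neurons, had a read in 1, 0 and 2 cells, and Col13a1 had no read in any retained cell. Set at 3 cells per group, the limit on the share of cells with a read is 3.70%, 5.17% and 4.23%, which does not limit cells that express the gene.

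Fibrillar collagens made up 6.30%, 13.0% and 4.04% of collagen reads, and 5.96% in unmarked adult cells without cell 157. Col11a1, a minor fibril component known from cartilage, was the one present in most pregnancy cells. It ranged from 0 to 1435 CPM with a median of 0 in marked adult, from 0 to 1764 CPM with a median of 13.5 CPM in unmarked adult and from 0 to 1148 CPM with a median of 134 CPM in pregnancy cells. Detection had the same order, with 18.5% (interval 10.8 to 28.7%) and 46.6% (33.3 to 60.1%) and 93.0% (84.3 to 97.7%). Means were 35.0, 120 and 235 CPM. Its log2 ratios of 2.45 and 0.92 left it just outside the call, as against the unmarked set it missed a ratio of 1. It was called under 5 alternatives, namely with reads scaled by TMM, with the stricter cell limits, with averaged log2 values, without cells of other lineages and without each group's highest cell. Marked cell 20 held 57.4% of the marked adult reads, and the marked mean without it was 17.4 CPM. The partner chain Col11a2 had a read in 1, 0 and 2 cells. Col5a2, which joins collagens I and III in fibrils, was detected in 40.7%, 27.6% and 33.8% of cells, with a highest cell of 1974, 740 and 816 CPM, medians of 0, 0 and 6.69 CPM and log2 ratios of -1.27 and -0.06. In pregnancy 22 of 71 cells had reads of both Col11a1 and Col5a2 and 44 had Col11a1 alone.

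The main stromal collagens were rare in these cells. Col1a2 had a read after thinning in 2 of 81 marked (2.47%), 7 of 58 unmarked (12.1%) and 6 of 71 pregnancy cells (8.45%), with a median of 0 in each group and highest cells of 21.2, 5772 and 34.4 CPM. Col3a1 had a read in 3 (3.70%), 10 (17.2%) and 17 cells (23.9%), with medians of 0 and highest cells of 215, 4083 and 458 CPM. One cell set the unmarked adult means. Unmarked cell 157 held 86.9% of the Col1a2, 73.7% of the Col3a1 and 82.0% of the Col1a1 reads of its group. It carried at least 3 of the 8 fibroblast genes and 0 of the 11 core basal genes at 100 CPM. With it, the log2 ratios of pregnancy over unmarked adult cells were -3.59 for Col1a2 and -2.01 for Col3a1. Without the 10 cells that carried genes of another lineage, they were -0.06 and 0.66. Marked cell 9 held 80.0% of the marked adult reads of Col3a1. In pregnancy, 57.3% of the Col1a1 reads lay in cell 62, which carried fibroblast genes and also 10 of the 11 core basal genes. Dcn, a gene of the fibroblast list, reached 100 CPM in 93.0% of pregnancy cells. Col27a1, with means of 16.9, 3.80 and 41.4 CPM, had log2 ratios of 0.94 and 1.90 and was just outside the call. Marked cell 57 held 60.2% of its marked reads, and without it the marked mean was 8.94 CPM and the gene was called, at 1.44 and 1.90. Pregnancy cell 29 held 48.8% of the pregnancy reads, and without it the pregnancy mean was 25.5 CPM and the ratios 0.40 and 1.36. Unmarked cell 158 held 58.1% of the unmarked reads. Its pregnancy median was 2.80 CPM, against 0 in both adult sets, and it was detected in 4.94%, 5.17% and 28.2% of cells.

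Collagen VI, which forms beaded filaments around cells, and the short-chain collagens were low. The call of lower expression was for Col6a2, with means of 28.8, 22.8 and 0.91 CPM, a median of 0 in each group and a highest cell of 661, 461 and 36.9 CPM. Its log2 ratios were -1.83 and -1.59. The call was lost with 100 CPM added (-0.35 and -0.28), with averaged log2 values (-0.40 and -0.36) and with a minimum mean of 50 CPM. It had a read after thinning in 10 of 81 marked (12.3%), 6 of 58 unmarked (10.3%) and 2 of 71 pregnancy cells (2.82%), and the exact intervals of these shares overlapped. Reads of Col6a1, Col6a2 and Col6a3, whose chains join in 1 molecule, seldom met in a cell. Each gene alone had a read after thinning in at most 22.5% of the cells of a group. In marked adult cells 3 cells had both Col6a1 and Col6a2, of 6 with Col6a1 and 10 with Col6a2. In pregnancy 1 cell had both, of 1 with Col6a1 and 2 with Col6a2. Of the remaining collagen VI chains, Col6a4 reached 10 CPM only through unmarked cell 187, with 98.3% of its unmarked adult reads. Col8a2, a short-chain collagen of blood vessels and cornea, had means of 20.5, 4.41 and 1.14 CPM, and unmarked cell 122 held 97.6% of its unmarked reads. Marked cell 81 held 65.5% of the marked reads of Col6a1, unmarked cell 138 held 60.0% of the unmarked reads of Col6a3, and marked cell 20 held 60.9% of the marked reads of Col5a1. Col10a1, the collagen of hypertrophic cartilage, had no read in any retained cell.

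Of the 18 genes under a mean of 10 CPM in every group, the median cell had 0 reads of each. After thinning, none of them was detected in more than 2.47% of marked adult, 10.3% of unmarked adult or 22.5% of pregnancy cells, the last for Col4a3. They were Col2a1, Col5a3, Col11a2 and Col24a1 of the fibrillar, Col4a3, Col4a4 and Col15a1 of the basement membrane, Col19a1, Col20a1 and Col22a1 of the FACIT, Col13a1 and Col25a1 of the transmembrane and Col6a5, Col6a6, Col8a1, Col10a1, Col26a1 and Col28a1 of the remaining collagens. Single cells held most reads of some of them, with 95.7% of the pregnancy reads of Col5a3 in cell 16, 61.9% of the marked reads of Col11a2 in cell 67 and 62.5% of the pregnancy reads of Col19a1 in cell 23. At 100 CPM, 30 of the 44 genes were reached in at least 1 retained cell. No read at all was found of 3 genes in marked adult, 10 in unmarked adult and 5 in pregnancy cells.

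The 2 adult sets gave a measure of how far the family differs among cells of 1 label. Between them 10 of the 24 collagen genes that averaged 10 CPM or more in 1 of the sets were past a log2 ratio of 1, against 36.5% of all 9014 genes. In unmarked cells 6 were higher, Col1a1, Col1a2, Col3a1, Col6a4, Col9a3 and Col11a1, against 17.4% of all genes. The remaining 4, Col4a6, Col5a2, Col6a1 and Col8a2, were lower, against 19.1%. The largest of these differences were in Col1a2, at 3.79, and Col3a1, at 3.29, the genes whose reads lay mainly in cell 157. Without the cells that carried genes of another lineage, some of which also carried core basal genes, Col1a1, Col1a2 and Col3a1 were no longer past the limit. Leaving out 1 cell brought the difference under the limit for 7 of the 10, to -0.93 for Col4a6 (marked cell 17), -0.96 for Col5a2 (marked cell 3), -0.79 for Col6a1 (marked cell 81), -0.75 for Col8a2 (marked cell 26), 0.58 for Col9a3 (unmarked cell 171), 0.71 for Col1a1 (unmarked cell 157) and 0.03 for Col6a4 (unmarked cell 187). With all cells, none of the 5 genes called higher in pregnancy was past it between the adult sets, with log2 ratios of unmarked over marked cells from -0.08 for Col9a1 to 0.80 for Col7a1, which was 1.21 without marked cell 67.

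The enzymes and chaperones that make collagen were counted by the same rule. Of 35 listed genes 27 averaged 10 CPM or more, and 3 were called higher and 1 lower in pregnancy, beside 9.26% and 4.44% of all genes. The 3 were hydroxylases, namely the lysyl hydroxylase Plod2 and the prolyl 3-hydroxylase family genes P3h1 and P3h3. Plod2 had means of 3.00, 4.51 and 44.3 CPM, with a highest cell of 73.0, 91.6 and 450 CPM and detection of 7.41%, 10.3% and 23.9%. P3h1 had means of 17.9, 1.56 and 112 CPM and was detected in 12.3%, 3.45% and 29.6% of cells, and P3h3 had means of 43.9, 29.1 and 113 CPM and was detected in 11.1%, 10.3% and 19.7%. All 3 had a median of 0 in each group. Adamts3, a protease that removes a propeptide of procollagens, was called lower, with means of 71.3, 204 and 23.3 CPM. The cyclophilin Ppib and the prolyl hydroxylase subunit P4hb had the highest levels per kilobase of this list, with log2 ratios of 0.35 and 0.25 for Ppib and 0.69 and -0.63 for P4hb. Single cells weighed heavily in this list. Unmarked cell 162 held 72.7% of the unmarked adult reads of P3h1, unmarked cell 145 held 86.8% of those of P3h3, and pregnancy cell 61 held 53.2% of the pregnancy reads of Adamts3. The call of P3h3 rests on pregnancy cell 15, as without it the pregnancy mean was 57.5 CPM and the log2 ratios 0.32 and 0.79. That of Adamts3 rests on marked cell 13, without which the ratio against marked cells was -0.70. The lysyl hydroxylase Plod1 had means of 14.8, 151 and 75.6 CPM, with 92.9% of the unmarked adult reads in cell 221 and 77.0% of the marked adult reads in cell 102.

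Of 12 genes for collagen receptors 8 averaged 10 CPM or more. None was called higher and 1 was called lower, beside 9.26% and 4.44% of all genes, and counts this small say little about the list. The gene called lower was the discoidin domain receptor Ddr2, with means of 58.9, 42.4 and 8.66 CPM. Unmarked cell 151, which carried fibroblast genes and also 8 of the 11 core basal genes, held 67.4% of the unmarked adult reads of Ddr2. Without it the unmarked mean was 13.0 CPM and the ratio against unmarked cells -0.30, so the call was lost. The integrin chain Itgb1, shared by the collagen-binding integrins, was the highest per kilobase, with medians of 648, 380 and 715 CPM and log2 ratios of 0.24 and 0.44. The adhesion receptor Adgrg1, for which collagen III is a known ligand, had medians of 25.4, 6.88 and 53.6 CPM and log2 ratios of 0.88 and 0.24.

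Within groups, the collagen share of a retained cell varied little with its depth. Cells left out for low depth or few genes are not covered by this. Their summed shares were 0.682%, 0.470% and 0.736% in marked adult, unmarked adult and pregnancy cells, against 0.329%, 0.447% and 0.921% in retained cells. The Spearman correlation of the share with assigned reads was -0.02 in 81 marked adult, -0.10 in 58 unmarked adult and 0.06 in 71 pregnancy cells, and with the mitochondrial share 0.07, 0.09 and 0.01. These are descriptions over cells that share a group, with reads as a common denominator. For single genes the values ranged up to 0.38 for Col9a1 with the mitochondrial share in pregnancy, and down to -0.28 for Col7a1.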

How the data were processed

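The authors deposited read counts per Entrez gene for each cell, made from read pairs aligned with Subread 1.5.0 to mm10 and counted with featureCounts. There were no molecular identifiers, and strand use in counting is not stated. The series-wide table was not used. Of 27179 gene identifiers 25275 matched a symbol, and the 1904 without one held 1.66% of reads. After 15 mitochondrial and 124 ribosomal protein genes were left out, 25136 genes were used, and their reads are the assigned reads. Cells with at least 50000 assigned reads and 1000 genes were retained. No doublet caller was run.

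CPM were computed per cell, detection was counted after random thinning to 50000 reads, and log2 ratios used mean CPM plus 10. A gene was called at a ratio of 1 or -1 against each adult set, among genes averaging 10 CPM or more in a group. Collagens described with values had a mean of at least 50 CPM in a group or were called, with the 3 collagen IX chains added. Partner genes named were those called or among the 5 highest per kilobase. Cells were named where 1 held over 50% of a collagen's reads in a group with at least 20 reads, and where leaving 1 out ended a call. Other genes and cells named were chosen after their values were seen. Members and lists were chosen with earlier results of these data known. With no animals named, each group is 1 sample and no test was run. The calculations were tested on simulated data.

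Python 3.11.15, NumPy 2.4.6, SciPy 1.17.1, pandas 2.3.3 and R 4.3.3 were used, with edgeR 4.0.16 and DESeq2 1.42.0 for scaling factors of summed reads alone. Alternatives were added CPM of 1 and 100, stricter cell limits, other scalings, averaging of log2 values, other minimum means and leaving out cells, of which leaving out the highest cell of 1 group was chosen after seeing the data.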

Additional observations from a re-analysis of the deposited data

Results flagged for a closer look

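Cells left out for low depth or few genes, which enter no comparison between groups, also held collagen reads. In 31 marked adult cells 0.682% of assigned reads were collagen reads (95% interval 0.659 to 0.707%), against 0.329% in the retained marked cells. In 67 unmarked adult cells the share was 0.470% (0.454 to 0.486%), against 0.447% in the retained unmarked cells. In 4 pregnancy cells it was 0.736% (0.682 to 0.793%), against 0.921% in the retained pregnancy cells. Each share of the cells left out was above the limit that a count of 0 reads allows. Set at 3 reads, that limit was 0.000663%, 0.000417% and 0.0032% of assigned reads in marked, unmarked and pregnancy cells.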

How the results depend on the processing

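No paired analysis was possible because the numbers in the labels only number cells and the results come from no test. Of 380 log2 ratios recomputed under alternatives, 23 changed sign, in 8 ratios of 7 genes (Col3a1, Col5a2, Col9a2, Col9a3, Col12a1, Col14a1 and Col17a1). In 21 of these the reported ratio was within 1 of 0. The other 2 were Col3a1 over unmarked cells, -2.01, at 0.019 as a mean of log2 values and 0.66 without cells of other lineages. With 100 CPM added, 3 genes in place of 5 were higher in pregnancy and 0 in place of 1 lower. Between adult sets 2 in place of 10 were apart. Among all genes the shares were 0.678%, 0.405% and 2.81%, in place of 9.26%, 4.44% and 36.5%. With 1 CPM added 6 were higher, 2 lower and 11 apart, beside 14.1%, 9.89% and 48.8% of all genes. As a mean of log2 values 7 were higher, 0 lower and 2 apart, beside 5.59%, 0.324% and 1.58%. With a minimum mean of 50 CPM 5 were higher, 0 lower and 6 apart, beside 8.81%, 5.95% and 35.6%. In stricter cells 7 were higher (10.4% of all), with TMM scaling 6 (8.71%) and with DESeq2 size factors 4 (7.93%). Without cells of other lineages 6 were higher (9.66%), and without each group's highest cell 6 (10.3%). Median collagen genes per cell in marked, unmarked and pregnancy cells were 7, 7.5 and 11 after thinning to 20000 reads, 11, 11 and 17 without thinning, and 5, 5 and 8 at 100 CPM. The collagen share was 0.334%, 0.434% and 0.908% as a mean over cells, 0.337%, 0.415% and 0.912% without other lineages, and 0.286%, 0.345% and 0.682% of all reads. Without Col4a1 and Col4a2, an alternative chosen after seeing the data, it was 0.199%, 0.232% and 0.288%. Leaving out a replicate was not possible with 1 sample per group. Averaging log2 values moved the median of all genes to 0.15 and 0.19 against marked and unmarked cells. The cause of these moves was not tested. Leaving out the highest cell of 1 group, also chosen after seeing the data, ended the calls of Col7a1, P3h3, Adamts3 and Ddr2. For shares of cells, the number of cells sets the limit that a count of 0 allows, at 3 cells per group.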
